A study of Mus musculus with 6 samples.

Results

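Probes for 10 genes of autophagy were followed in RNA of the mouse ventromedial hypothalamus (VMH), a hypothalamic nucleus involved in body weight and energy use. The genes are Atg3, Atg5, Atg7, Atg12, Becn1, Map1lc3a, Map1lc3b, Gabarapl1, Sqstm1 and Bnip3, chosen by symbol with earlier results of these data known, and each probe annotated with exactly 1 of these symbols was taken. They have 16 probes among the 45281 of the Illumina Mouse-6 V2 BeadChip, whose annotation names 19057 genes. The knockout group (KO) is 3 arrays of mice with a VMH-specific FoxO1 Knockout and the wild-type group (WT) is 3 arrays, all without treatment and of a strain background given as Mixed. Each array carried an independent pool of RNA from 3 animals, so that a value is an average over a pool and animals within a pool cannot be told apart. The labels name neither the line that deleted FoxO1 nor the deleted part of the gene, and age and sex of the animals are not given in the sources used here.

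Autophagy encloses parts of the cytoplasm in a double membrane and delivers them to the lysosome. A lipid kinase complex around beclin 1 starts the membrane, and a pair of ubiquitin-like conjugation systems then attaches proteins of the ATG8 family, such as LC3, to it, where receptors bring in the cargo. FoxO transcription factors are known to switch on several of these genes, and FoxO3 does so for Map1lc3b, Gabarapl1 and Bnip3 in mouse muscle. The comparison asks whether these transcripts differ between pools labelled as FoxO1 knockout and as wild type.

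The promoters of 7 members were taken from the RefSeq promoter table (GRCm38.p6), which gives 250 bases before and 50 after the annotated start of a gene. The members Becn1, Map1lc3a and Atg12 were not searched and are not shown, so the counts below do not cover them. Each promoter was searched on both strands for GTAAACA, a full FoxO site, for its shorter core TAAACA, which overlaps the full site, and for CACGTG, the E-box at the centre of the element read by TFEB, a factor that switches on lysosomal and autophagy genes. The sequence GTAAACA was found in 0 of the 7 (3.65% of all 32851 promoters of that length hold it), and the core in 1 of 7 (13.4% of all). Other forms of a FoxO site were not searched. CACGTG was found in 4 of 7, those of Atg3, Atg5, Atg7 and Bnip3 (7.15% of all). A match is a run of letters and not a shown binding site. The promoters of Atg3 and Atg5, which are described first below, and of Gabarapl1, the member with the FoxO core, follow with the matches in capitals. They lie at chr16:45158579-45158878, chr10:44268089-44268388 and chr6:129532942-129533241, each on the plus strand.
Atg3: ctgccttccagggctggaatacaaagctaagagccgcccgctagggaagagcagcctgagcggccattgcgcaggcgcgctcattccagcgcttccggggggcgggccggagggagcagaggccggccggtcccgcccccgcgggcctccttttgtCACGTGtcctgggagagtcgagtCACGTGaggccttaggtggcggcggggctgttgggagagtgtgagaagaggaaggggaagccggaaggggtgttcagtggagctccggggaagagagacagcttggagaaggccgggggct
Atg5: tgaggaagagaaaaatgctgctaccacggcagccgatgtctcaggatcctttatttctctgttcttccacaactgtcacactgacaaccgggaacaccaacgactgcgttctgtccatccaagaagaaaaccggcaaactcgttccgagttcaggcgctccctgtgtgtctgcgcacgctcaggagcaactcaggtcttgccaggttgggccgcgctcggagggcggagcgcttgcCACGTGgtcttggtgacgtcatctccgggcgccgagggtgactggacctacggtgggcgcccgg
Gabarapl1: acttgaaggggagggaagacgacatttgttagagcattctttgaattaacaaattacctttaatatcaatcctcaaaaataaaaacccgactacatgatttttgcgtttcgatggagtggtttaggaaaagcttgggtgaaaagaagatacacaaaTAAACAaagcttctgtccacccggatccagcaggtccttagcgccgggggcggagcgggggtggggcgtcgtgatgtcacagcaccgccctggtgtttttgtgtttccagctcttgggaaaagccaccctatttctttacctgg
CACGTG begins 94 and 71 bases before the start of Atg3 and 14 bases before that of Atg5, and TAAACA begins 94 bases before the start of Gabarapl1.

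No autophagy member passed the test between genotypes. Of the 16 probes 12, of 9 genes, were detected often enough to be tested (detection p under 0.05 on at least 3 of 6 arrays), and 0 of these 12 passed limma's moderated test after Benjamini-Hochberg adjustment over all tested probes (lowest adjusted p among them 0.582), where 1 of 20006 tested probes (0.005%) did. At an unadjusted p under 0.05 there were 0 member probes too, against 7.58% of all tested probes. That count was 1 under 7 of the other settings tried, and 2 with no filter on dim probes. Of the 12 probes 10 read higher in KO, with a median difference of 0.22 log2 and a largest one of 1.38 for Atg3, where 52.9% of all tested probes were higher with a median of 0.021. The arrays of the genotypes did not overlap for 1 member probe, of Atg5, which lay higher in KO as 8.84% of all tested probes did. Probes of a gene share their transcript, so the 12 are not independent counts.

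**Figure D1:**
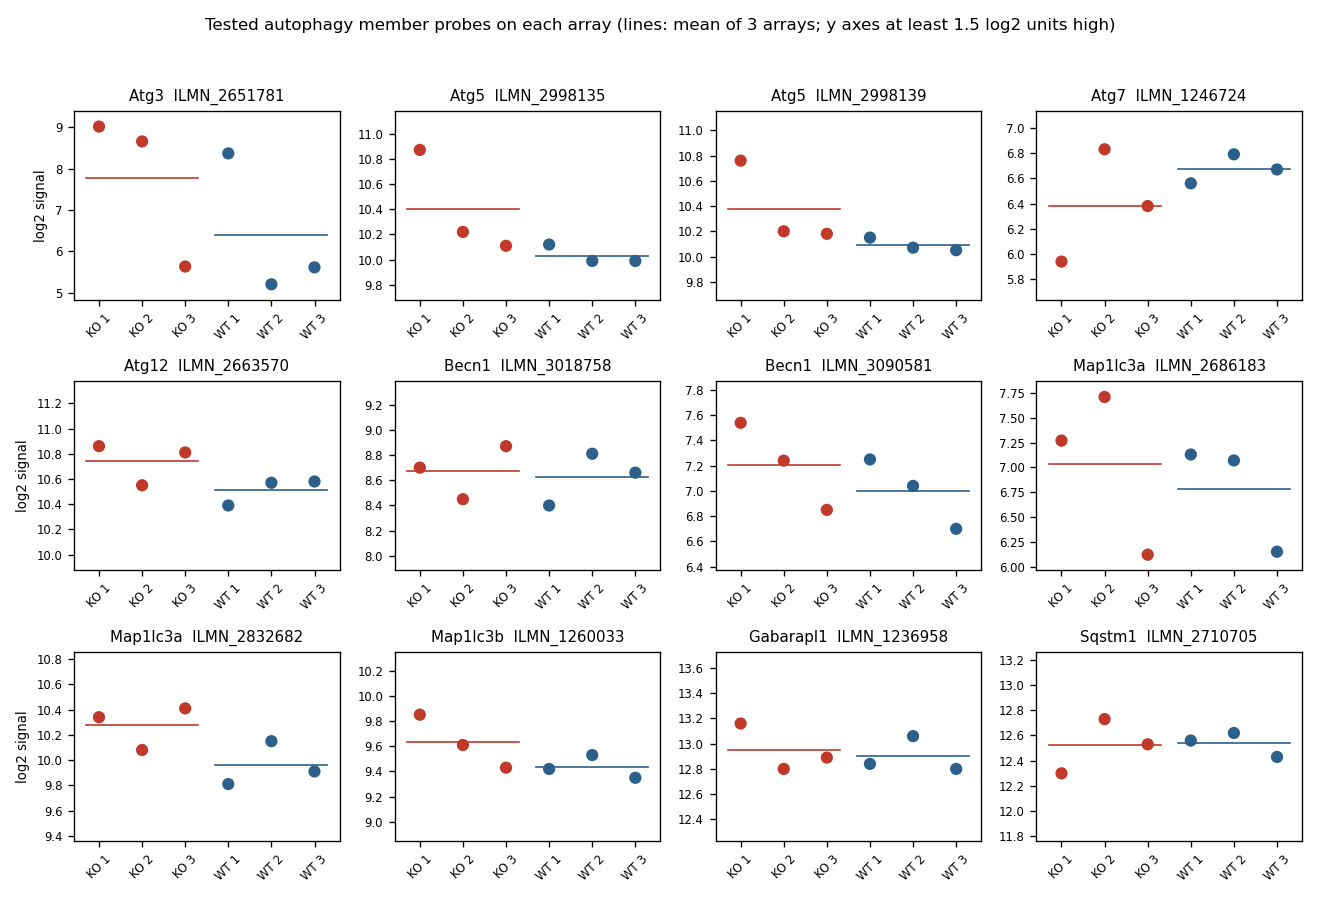
Background-corrected, normalised log2 signal (y axis) of the 12 tested member probes on each of the 6 arrays (x axis), KO in red and WT in blue, with the mean of each group of 3 arrays as a line. The Atg3 probe lies high on KO 1, KO 2 and WT 1 and low on the other arrays, and both Atg5 probes are highest on KO 1, at 10.87 and 10.76.

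The array KO 1 stood apart from the rest of the series. Its mean correlation with the other arrays was 0.954 over tested probes, where the others had 0.977 to 0.981, and the number of detected probes was lowest on it, 18771 against 19381 to 20445. Transcripts of the exocrine pancreas were present on all arrays: 16 of 19 marker genes were tested, and their mean log2 signal was 12.03, 10.64 and 9.23 on KO 1, KO 2 and KO 3 and 11.59, 8.61 and 10.36 on WT 1, WT 2 and WT 3. The log2 of their summed signal ranged from 14.32 to 16.62 in KO and from 13.87 to 16.25 in WT. Markers of VMH neurons were detected, 7 of 7 genes, with the transcription factor Fezf1 between 12.08 and 12.84. Foxo1 was read lower in KO by its brighter probe (-0.65, SE 0.24) and higher by its dimmer one (0.34, SE 0.35), and neither passed (limma adjusted p = 0.582 and 0.677). Whether either probe lies in the deleted part is not known, so these values do not check the labels, and KO means the pools labelled knockout throughout. In whole tissue RNA, fewer cells of a type and less RNA per cell cannot be told apart.

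Atg3, the enzyme that hands ATG8 proteins to their lipid, did not follow the genotype but fell into separate levels. Its detected probe, ILMN_2651781, read 9.02, 8.66 and 5.63 on a log2 scale on KO 1, KO 2 and KO 3, and 8.37, 5.20 and 5.61 on WT 1, WT 2 and WT 3. Arrays KO 1, KO 2 and WT 1 were high, the other 3 were low, and the genotypes overlapped. The KO minus WT difference of 1.38 (SE 1.01, limma adjusted p = 0.605) had a 95% interval from -0.94 to 3.69, and it was 0.75 without KO 1 and 2.45 without KO 3. In the deposited signal, which is linear and not background-corrected, the high arrays measured 646.7, 530.2 and 457.3 and the low arrays 176.2, 162 and 175.5. The low values were near background, with detection p-values of 0.031 on KO 3, 0.0769 on WT 2 and 0.0214 on WT 3. The other Atg3 probes, ILMN_2595188 and ILMN_2805580, are annotated to the same RefSeq transcript and were detected on 0 of 6 arrays, so they give no level. The 3 arrays high in Atg3 are also the 3 highest in the pancreas markers, at 12.03, 10.64 and 11.59 against 9.23, 8.61 and 10.36, and the part of those cells in the Atg3 levels was not tested.

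Separate levels were defined as a gap of at least 1 log2 unit between neighbouring arrays in the deposited signal that is wider than the range on either side of it. For Atg3 the gap was 1.38, with ranges of 0.12 among the low and 0.50 among the high arrays. Of all tested probes 200 (1%) fell into such levels, and in 156 of these KO 1 stood alone on one side. The levels split along genotype for 0 probes, and 7 probes had 3 arrays on each side. With the division seen for Atg3, KO 1, KO 2 and WT 1 high, there were 2 probes, the second being a probe of Cd200, a membrane glycoprotein that restrains microglia.

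Cd200 lies beside Atg3 on chromosome 16: in the gene order of GRCm38.p6 it is the next gene with a tested probe, and 1 protein-coding gene lies between them. Its probe ILMN_3160771 read 9.04, 8.99 and 7.24 in KO and 9.06, 7.27 and 7.32 in WT, in the order of array numbers. Probe ILMN_3160770 read 9.04, 8.56 and 7.49 in KO and 9.07, 7.88 and 7.48 in WT, and ILMN_1214255 read 8.41, 8.28 and 7.71 against 8.56, 7.45 and 7.51. All 3 Cd200 probes were higher on KO 1, KO 2 and WT 1 than on the other arrays, as Atg3 was, although only the first has a gap over the limit of 1. Their KO minus WT differences were 0.54, 0.22 and 0.29, with limma adjusted p-values of 0.695, 0.846 and 0.696.

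**Figure D2:**
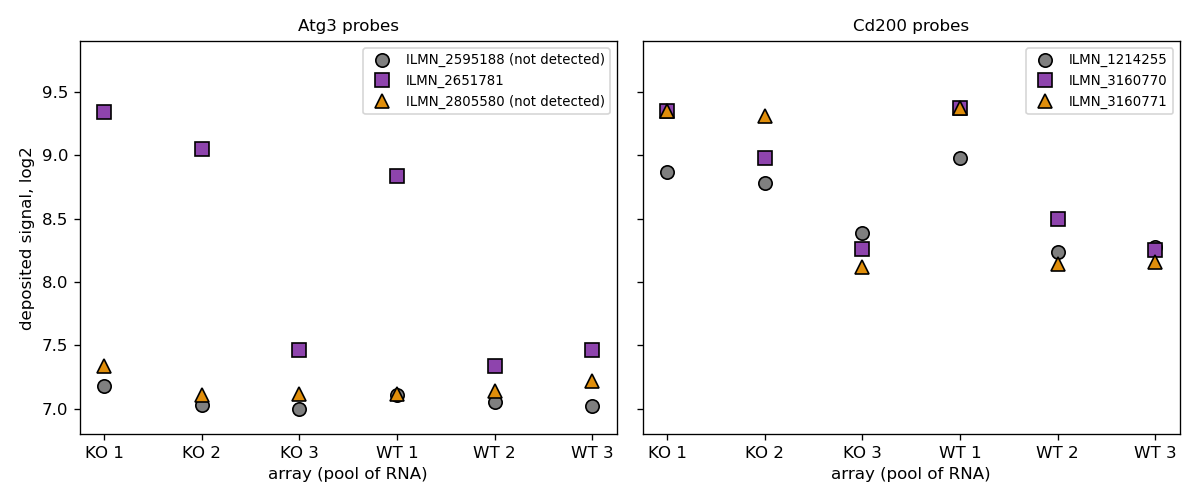
Log2 of the deposited signal (y axis) of the 3 probes of Atg3 (left) and the 3 of Cd200 (right) on each array (x axis). The detected Atg3 probe stands at 9.34, 9.05 and 8.84 on KO 1, KO 2 and WT 1 and at 7.34 to 7.46 elsewhere, and the Cd200 probes are higher on the same 3 arrays.

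Apart from this pair, no gene nearby had a probe with a gap over the limit of 1, though some probes ordered the arrays alike. Among the 20 genes with tested probes nearest to Atg3 on the chromosome, 10 on each side, 31 probes were tested and 1, that of Cd200, fell into separate levels. Slc35a5, a nucleotide sugar transporter relative on the other side of Atg3, had gaps of 0.27 and 0.20 on its 2 probes. Their r with the Atg3 probe was 0.744 and 0.766. The first of them (ILMN_2600042), the Ndufs5-ps probe and Nectin3 probes ILMN_3012274 and ILMN_1250766 were also higher on KO 1, KO 2 and WT 1 than on the other arrays. Outside Cd200 the remaining probes did not order the arrays so. Pearson's r with the Atg3 probe over the 6 arrays exceeded 0.9 for 4 of the 31 probes, the 3 of Cd200 (0.988, 0.958 and 0.923) and 1 of the 3 of the adhesion gene Nectin3 (0.941), and the median of the 31 was 0.095. Over the array 183 other tested probes (0.915%) exceeded 0.9, 10 of the 161 with a known chromosome being on chromosome 16 (6.21%, against 3% of tested probes). These 10 include the 3 probes of Cd200 and the 1 of Nectin3.

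**Figure D3:**
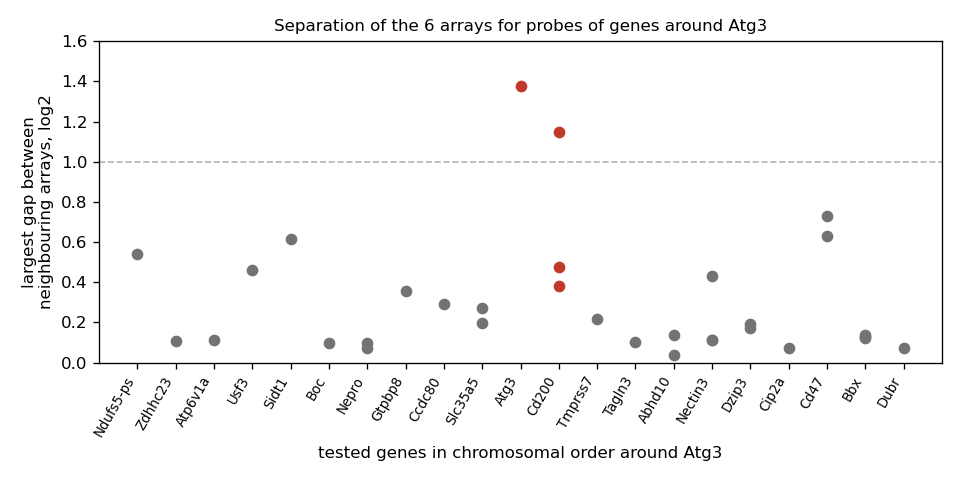
Largest gap between neighbouring arrays in log2 of the deposited signal (y axis) for each tested probe of Atg3 and of the 10 tested genes on either side, in chromosomal order (x axis), with Atg3 and Cd200 in red and the limit of 1 as a dashed line. The Atg3 probe (1.38) and 1 Cd200 probe (1.15) lie above the line.

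By the rule for likeness, the 5 probes of other genes closest to the Atg3 pattern were those of Cd200 (r = 0.988), Jakmip2 (0.985), Serinc1 (0.983), Zfp449 (0.983) and Pinx1 (0.981), each over 6 arrays. Their genes lie on chromosomes 16, 18, 10, X and 14. These values describe the arrays, which share the pools and the normalisation, and have no p.

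Atg5, which joins with Atg12 into the conjugate that directs LC3 to the membrane, was highest on KO 1. Probe ILMN_2998135 read 10.87, 10.22 and 10.11 in KO and 10.12, 9.99 and 9.99 in WT, and ILMN_2998139 read 10.76, 10.20 and 10.18 against 10.15, 10.07 and 10.05. On both probes KO 1 stood well above the rest, and the remaining 5 arrays lay within 0.21 and 0.14 log2 of each other in the deposited signal. The differences were 0.37 (SE 0.22, 95% interval -0.12 to 0.86) and 0.29 (SE 0.19, -0.15 to 0.73), with limma adjusted p-values of 0.582 and 0.586. Without KO 1 they were 0.13 and 0.10. The second is the probe whose genotypes did not overlap.

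Atg7, the activating enzyme of both conjugation systems, had 1 probe, and it read lower in KO. The arrays gave 5.94, 6.83 and 6.38 in KO and 6.56, 6.79 and 6.67 in WT, with KO 1 lowest and KO 2 highest of all. The difference was -0.29 (SE 0.23, 95% interval -0.81 to 0.23; limma adjusted p = 0.619), -0.066 without KO 1 and -0.51 without KO 2. Atg12, the ubiquitin-like partner of Atg5, read 10.86, 10.55 and 10.81 in KO and 10.39, 10.57 and 10.58 in WT. Its KO 1 and KO 3 lay above all WT arrays while KO 2 lay among them. The difference of 0.23 (SE 0.16, -0.14 to 0.59) did not pass either (limma adjusted p = 0.593), and it was 0.17 without KO 1.

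Becn1, which encodes the beclin 1 subunit of the kinase complex that starts the membrane, overlapped between genotypes on both tested probes. The brighter probe, ILMN_3018758, read 8.70, 8.45 and 8.87 in KO and 8.40, 8.81 and 8.66 in WT, a difference of 0.047 (SE 0.18, 95% interval -0.37 to 0.46). The dimmer one, ILMN_3090581, read 7.54, 7.24 and 6.85 against 7.25, 7.04 and 6.70, a difference of 0.21 (SE 0.22, -0.30 to 0.72) that was 0.046 without KO 1. Neither passed (limma adjusted p = 0.921 and 0.685), and the sign of the brighter probe turned to -0.052 without KO 3 and -0.064 without WT 1. The third probe, ILMN_2489136, was not detected on any array.

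Of the ATG8 family, Map1lc3a, which encodes LC3A, had the smallest unadjusted p of all members (0.0939) on its brighter probe. That probe, ILMN_2832682, read 10.34, 10.08 and 10.41 in KO and 9.81, 10.15 and 9.91 in WT. KO 1 and KO 3 lay above all WT arrays and KO 2 lay below WT 2. The difference was 0.32 (SE 0.17, 95% interval -0.067 to 0.71, 1.25-fold; limma adjusted p = 0.582), and 0.29 without KO 1.

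The dimmer Map1lc3a probe, ILMN_2686183, gave another picture. It read 7.27, 7.71 and 6.12 in KO and 7.13, 7.07 and 6.15 in WT, so that KO 3 and WT 3 were low and the other 4 arrays high, across genotypes. In the deposited signal the gap between these levels was 0.40, wider than the range on either side (0.010 and 0.36) but under the limit of 1. Its difference was 0.25 (SE 0.42, -0.70 to 1.20; limma adjusted p = 0.801), and it turned to -0.091 without KO 2 and -0.070 without WT 3. The probes of this gene thus ordered the arrays differently, with KO 3 highest on one and lowest on the other.

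The 5 probes closest to the pattern of the brighter Map1lc3a probe were those of 1810062O18Rik (r = 0.994), Zc4h2 (0.992), Lhfpl5 (0.991), Tmem9b (0.987) and Decr2 (0.984) over 6 arrays, among 318 other tested probes with r over 0.9.

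Map1lc3b, which encodes LC3B, the most used marker of autophagosomes, read 9.85, 9.61 and 9.43 in KO and 9.42, 9.53 and 9.35 in WT. KO 1 was highest, KO 2 lay above all WT arrays and KO 3 lay among them. The difference was 0.20 (SE 0.16, 95% interval -0.18 to 0.57; limma adjusted p = 0.629), and 0.088 without KO 1. Gabarapl1, of the GABARAP branch of the family, read 13.16, 12.80 and 12.89 in KO and 12.84, 13.06 and 12.80 in WT. Its genotypes overlapped throughout, with a difference of 0.049 (SE 0.17, -0.33 to 0.43; limma adjusted p = 0.911) that was -0.056 without KO 1.

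Sqstm1 encodes p62, a receptor that carries ubiquitinated cargo and is itself degraded by autophagy. It read 12.30, 12.73 and 12.53 in KO and 12.56, 12.62 and 12.43 in WT, and the lowest and the highest of the 6 arrays were both KO. The difference was -0.018 (SE 0.17, 95% interval -0.40 to 0.36; limma adjusted p = 0.968) and 0.092 without KO 1. Bnip3, a mitophagy receptor of the outer mitochondrial membrane, had 1 probe, which was detected on 0 of 6 arrays, so nothing can be said of its level in either genotype.

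**Figure D4:**
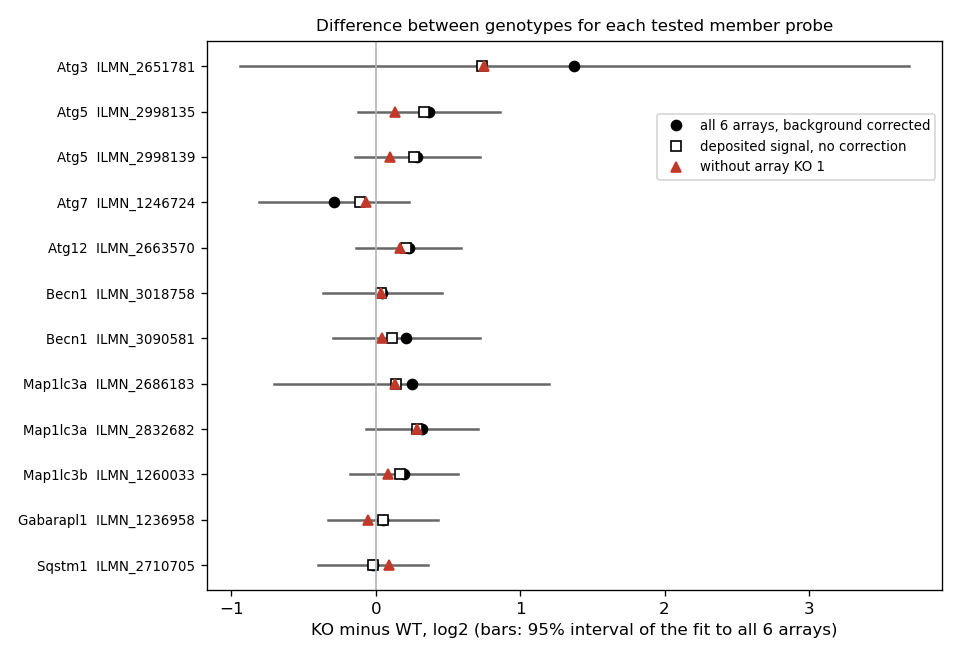
KO minus WT difference in log2 (x axis) of the 12 tested member probes (y axis), as black circles with their 95% intervals from limma, open squares for the deposited signal without background correction and red triangles without the array KO 1. Each interval holds 0, and the Atg5 triangles lie at 0.13 and 0.10 where the circles lie at 0.37 and 0.29.

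The median difference of the members depended on single arrays. Of the 12 member probes 7 were highest on KO 1, as were 36.7% of all tested probes, and the median deviation of the 12 from their 6-array means was 0.28, 0.042 and -0.076 on KO 1, KO 2 and KO 3 and -0.085, 0.014 and -0.18 on WT 1, WT 2 and WT 3. Without KO 1 the median difference was 0.096 (0.014 over all tested probes), and 10 of the 12 were above 0, the exceptions being Atg7 and Gabarapl1. Without WT 3 it was 0.109, with 8 of the 12 above 0. On KO 1 the microglia markers, 9 of 10 tested, deviated by 0.53, against 0.10 and -0.023 on the other KO arrays and -0.18, 0.12 and -0.42 in WT. The log2 of their summed signal ranged from 11.81 to 12.12 in KO and from 11.52 to 11.86 in WT. By brightest probe, Csf1r (7.59) and Cx3cr1 (8.14) among them were lowest of all arrays on KO 1, and the other tested genes were highest there. Oligodendrocyte markers, 5 of 6 tested, deviated by 0.29 on KO 1 and by -0.13 to -0.009 elsewhere. Their log2 summed signals were 14.44 to 14.54 in KO and 14.38 to 14.51 in WT. Mag, among them, was lowest of all arrays on KO 1, at 10.9. The pancreas markers deviated by 1.65 on KO 1, 0.21 and -1.14 on KO 2 and KO 3, and 1.19, -1.85 and -0.12 in WT. The arcuate nucleus is a neighbour of the VMH. Its marker Npy read 8.11, 7.97 and 7.61 in KO and 8.33, 8.23 and 8.56 in WT. Each KO array thus lay below each WT array, as for 6.24% of all tested probes, and KO 1 was the highest in KO. Kiss1 lay the other way, at 6.95, 6.34 and 6.23 against 5.85, 5.41 and 6.13, as for 8.84% of all tested probes. Kiss1 and the tested Pomc probe (10.07) were highest of all arrays on KO 1. Over the arcuate markers, 3 of 4 genes tested, the deviation was 0.76 on KO 1 and -0.30 to 0.097 elsewhere. The log2 summed signals of these markers were 10.16 to 10.86 in KO and 10.41 to 10.59 in WT. Those of VMH neurons deviated by -0.24 on KO 1, their lowest value, and by 0.20 on KO 2, their highest, with log2 summed signals of 14.43 to 14.82 in KO and 14.61 to 14.72 in WT. The part of these cells in the member values was not tested.

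The wider pathway was read through a list of 52 other autophagy genes, of which 48 had a named probe and 40 were tested by their brightest probe. Of these, 19 read higher and 21 lower in KO, with a median of -0.034, and 0 passed (limma, lowest adjusted p = 0.582). At an unadjusted limma p under 0.05 there was 1 of these brightest probes, on the lower side. Of all tested probes 3.8% were lower and 3.77% higher at that level. Dimmer probes under that p were those of Wipi1 (0.48) and Gabarapl2 (0.62), higher in KO, and Uvrag (-0.78), lower. A dimmer Wdr45b probe also fell under that p, but its signal passed the detection limit on 0 of the WT arrays. It entered the test through the KO arrays alone, so its difference is not read. The KO arrays all exceeded the WT arrays for 5 genes, and the reverse held for 6, against 8.84% and 6.24% of all tested probes. By role, differences were higher in KO for 1 of 4 initiation genes, 2 of 5 nucleation genes, 3 of 7 genes of lipid transfer and phosphoinositide binding, 2 of 6 conjugation genes, 2 of 2 further ATG8 genes, 5 of 8 receptors, 3 of 6 fusion genes and 1 of 2 transcription factors.

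Among the brightest probes the smallest p on the lower side belonged to Wdfy3, a large scaffold for clearing protein aggregates. It read 6.67, 7.34 and 8.21 in KO and 8.70, 7.98 and 8.66 in WT, with KO 1 lowest and KO 3 among the WT arrays. The difference was -1.04 (SE 0.37; unadjusted p = 0.0215 and limma adjusted p = 0.582), -0.67 without KO 1, and its dimmer probe differed by -0.37. Atg16l2, a relative of the protein that anchors the Atg5 conjugate, read 8.05, 7.84 and 8.10 in KO and 8.42, 8.13 and 8.55 in WT. The highest KO array was below the lowest WT array, and the difference of -0.37 (SE 0.17; limma adjusted p = 0.582) was -0.40 without KO 1. Epg5, a tether for fusion with the lysosome, differed by -0.42 (SE 0.20), and by -0.24 without KO 1.

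On the higher side the brightest probes with the smallest p were those of Vamp8, Bnip3l and Fkbp8, all with a limma adjusted p of 0.582. Vamp8, a SNARE of the fusion step, differed by 0.59 (SE 0.28), and by 0.28 without KO 1. Fkbp8, a mitophagy receptor, differed by 0.31 (SE 0.17; 0.20 without KO 1). Bnip3l encodes NIX, the relative of Bnip3 that clears mitochondria from maturing red cells. It read 11.69, 11.20 and 11.29 in KO and 11.10, 11.08 and 10.99 in WT, and the lowest KO array exceeded the highest WT array, with a difference of 0.34 (SE 0.17) that was 0.19 without KO 1. Blood markers, 4 of 5 tested, were also higher in each KO pool in sum, with a log2 summed signal of 13.31 to 13.73 in KO and 12.95 to 13.07 in WT. KO 1, where Bnip3l was highest, had the lowest sum of the KO pools. In mean log2 over the 4 genes KO 2 was lowest of them instead (9.25, against 9.29 on KO 1). Hba-a1 was detected on all arrays and overlapped between genotypes. The Hbb-bt probes disagreed, with differences of 0.62, 0.53, 0.12 and -0.27. Hbb-b2 and Alas2 were each detected on 3 KO arrays and 1 WT array. They thus passed the filter through KO, and their differences are not read. The part of blood cells in the Bnip3l value was not tested.

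**Figure D5:**
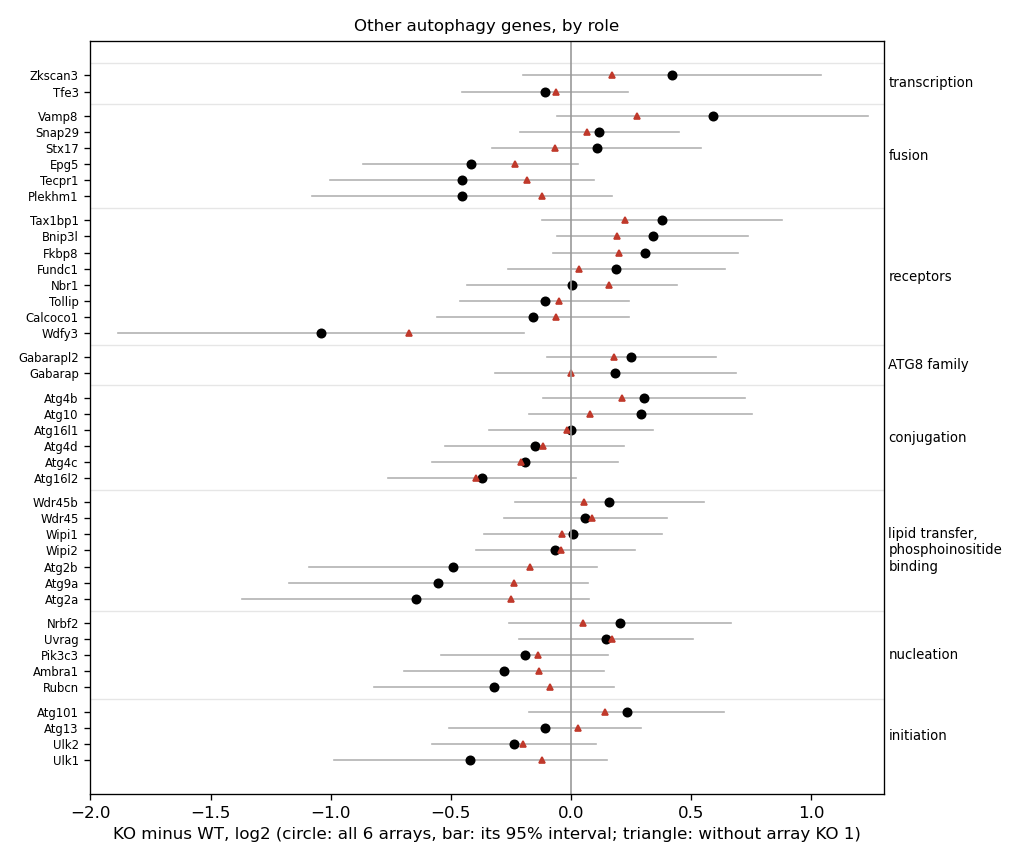
KO minus WT difference in log2 (x axis) of the 40 tested autophagy genes outside the 10 members (y axis), ordered by role, as circles with 95% intervals from limma and triangles without KO 1. The differences run from -1.04 for Wdfy3 to 0.59 for Vamp8 with a median of -0.034.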

How the data were processed

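The signal table the authors deposited gives linear probe intensity and, beside each, a detection p-value, per the file headers. The table is called non-normalized, yet the sorted signals of the 6 arrays differ by at most 0.4, so they had been quantile-normalized; they were not background-subtracted. The authors' deposited log2 value table differs from log2 of the signals by at most 5e-05, so it is uncentred and holds no ratios, and its column medians are 7.30 or 7.31. Partek Genomics Suite 6.5 is named per the series' design text; how the signals were normalized, and what the detection p is set against, are not given in the sources used here.

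From the signals, neqc of limma 3.58.1 (R 4.3.3) corrected the background by normexp with an offset of 16, normalized by quantiles and took log2. Testing needed a detection p under 0.05 on 3 or more of the 6 arrays and used lmFit and eBayes, 2-sided, KO against WT without covariates, adjusted over 20006 probes. The fit was also run on simulated data with independent normal noise and spreads shuffled among probes. These lacked deviations shared by an array, such as those of KO 1, so they do not show how the fit performs here. The number of arrays limits precision. Symbols were updated through Entrez identifiers to RefSeq (34807 of 34885 matched); 18 probes with several symbols, 1 with a member among them, and 10378 with none were not named.

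The members, the lists of other autophagy genes and of cell markers, and the rules were chosen with earlier results of these data known. All member probes are described. Of the other autophagy genes any that passed, or otherwise the 3 of lowest p in each direction by their brightest probe, are named. Those with a dimmer probe at an unadjusted limma p under 0.05 are named too, as are 5 probes by likeness. Cd200's other probes, the neighbours of Atg3 and Nectin3 were chosen after values were seen. The pools are described as independent, and replicate numbers are not stated to pair them. Deviations of same-numbered arrays correlated at 0.146, 0.004 and 0.402. For each KO array this was its highest value among the WT arrays, though for KO 2 by little (0.004 against -0.002). Whether the numbers pair the pools is not known.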

Additional observations from a re-analysis of the deposited data

How the results depend on the processing

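The settings tried were, for the values, uncorrected background, a normexp offset of 50, scaling by medians and the authors' log2 table; for the probes, no detection filter, a strict one (p under 0.01 on 6 of 6 arrays) and the brightest probe per gene or all of them; for the fit, a replicate block, array weights and a trend with intensity; omission of each array; and, chosen after seeing the data, omission of both arrays numbered 1. In each of these fits 0 member probes passed. The number of probes past the threshold over the array was 1, and 0 without background correction, with the offset of 50, the authors' table, either other filter, the trend and the replicate block; leaving out 1 array gave 0 to 1. At an unadjusted p under 0.05 it was 1516, and 439 to 2632 with 1 array left out. Member probes under that p numbered 1 without background correction, with the authors' table, array weights or the replicate block, and without KO 2, KO 3 or WT 1, and 2 with no filter. The median of the members was 0.096 to 0.27 with 1 array left out, and that of the other autophagy genes -0.034, -0.082 with no filter and -0.099 to -0.006 with 1 array left out. Of 190 single-probe values under another setting 177 kept their sign and side of the threshold. The 13 that turned were Becn1 ILMN_3018758 (-0.076 with both arrays numbered 1 omitted, and -0.064 to 0.158 with 1 array left out, below 0 without KO 3 at -0.052 and without WT 1), Map1lc3a ILMN_2686183 (-0.046 with array weights, and -0.091 to 0.706 with 1 array left out, below 0 without KO 2 and without WT 3 at -0.07), Gabarapl1 (-0.087 with both arrays numbered 1 omitted, and -0.056 to 0.129 with 1 array left out, below 0 without KO 1 and without WT 3 at -0.001) and Sqstm1 (0.049 with array weights, 0.105 with both arrays numbered 1 omitted, and -0.124 to 0.092 with 1 array left out, above 0 without KO 1 and without WT 2 at 0.022); the cause was not tested. With the replicate block the lowest adjusted p of a member was 0.485 (limma), and the call count went from 1 to 0. That member was Atg3, whose SE fell from 1.01 to 0.57. WT 2 did not correlate best with KO 2. The strict filter left 10 member probes. Probes near background, such as Atg3 on its low arrays, have only poorly known levels.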
